A study of Mus musculus with 16 samples.

Results

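The 10 glycolytic enzymes were examined in pathway order, each as the row of the count table whose gene identifier carries its symbol in GENCODE mouse release 21: Hk1, Hk2, Gpi1, Pfkl, Pfkp, Pfkfb3, Aldoa, Pgk1, Pkm and Ldha. These are 10 of the 39057 genes in the table and 10 of the 12481 genes with enough counts to be tested, so every member was tested. Poly-A RNA was sequenced from 16 untreated cultures of primary brain endothelial cells of the cortex. The donors were targeted replacement mice that express human APOE from the mouse promoter, 8 carrying *APOE3* and 8 carrying *APOE4*. Both genotypes therefore lack the mouse protein and differ in the human isoform. Each culture was grown from the cortex of 1 mouse aged 21 to 28 days, and each genotype had 4 males and 4 females. Cells of both genotypes had been selected with puromycin (8 µg/ml), to which endothelial cells are less sensitive than other brain cells, and were used at passage 0. Levels come from a dish and not from vessels in place, and no wild-type or APOE-deficient culture was part of the comparison.

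Glycolysis splits glucose into pyruvate in the cytosol and yields ATP without oxygen, and lactate dehydrogenase turns the pyruvate into lactate while regenerating NAD+. Endothelial cells, although bathed in oxygen, are known to draw much of their ATP from it. Flux is held mainly at hexokinase, phosphofructokinase and pyruvate kinase, and in part by PFKFB3, which makes the activator of phosphofructokinase. The comparison asks whether the transcripts of this pathway differ with *APOE* genotype.

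Total counts per library ran from 12717847 to 18624417. The human APOE transcript was present in every library, at 1003 to 1425 CPM (counts scaled to the TMM-normalized library size) in *APOE3* and 609 to 1013 CPM in *APOE4*. All 18 brain endothelial markers passed the filter on low counts, with a summed level of 20388 to 21658 CPM in *APOE3* and 20162 to 22293 CPM in *APOE4*, and 1 of them was called different between genotypes. Of the marker lists for other cells, none of the genes tested was called, namely 9 of 13 for pericytes and smooth muscle, 4 of 7 for fibroblasts, 2 of 8 for astrocytes, 2 of 9 for microglia and macrophages, 1 of 8 for oligodendrocytes and 2 of 7 for neurons. The other genes of these lists had too few counts to be tested. Pericyte and smooth muscle markers summed to 193 to 362 CPM in *APOE3* and 227 to 345 in *APOE4*, and fibroblast markers to 13.3 to 65.3 and 10.4 to 85.2. Each of the other lists summed to at most 15.6 CPM in any library, neurons being the highest of them. In bulk RNA, fewer cells of a type and less RNA per cell cannot be told apart.

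Aldoa and Pkm stood at the top of the pathway when levels were set per length. Divided by the bases of all annotated exons, Aldoa had 180 ± 9.60 CPM per kb (SD, n = 16) and Pkm 172 ± 11.2, and their ranges over libraries overlapped. Gpi1 (61.6 CPM per kb) and Ldha (54.4) followed, again with overlapping ranges, and Hk1 lay below them at 34.5. Pgk1 (19.1) and Pfkfb3 (15.4) overlapped, while Pfkl (10.97) and Pfkp (4.94) were each apart from their neighbours in this order. Hk2 was last at 0.137 CPM per kb. With the longest transcript as the length, Pkm and Aldoa changed places, as did Pfkfb3 and Pgk1. Some overlaps changed too. Gpi1 (116.3 CPM per kb at the lowest) then lay above Ldha (114.9 at the highest). Pfkl (up to 23.1) then overlapped Pgk1 (from 20.4) and Pfkfb3 (from 20.7). None of these levels was corrected for short stretches of sequence shared with other annotated genes. Such stretches made up 53.9% of those in Pgk1 transcripts, beside 1.22% for Hk1. The place of Pgk1 below Hk1 is therefore uncertain, and whether sharing lowered its level was not tested.

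**Figure D1:**
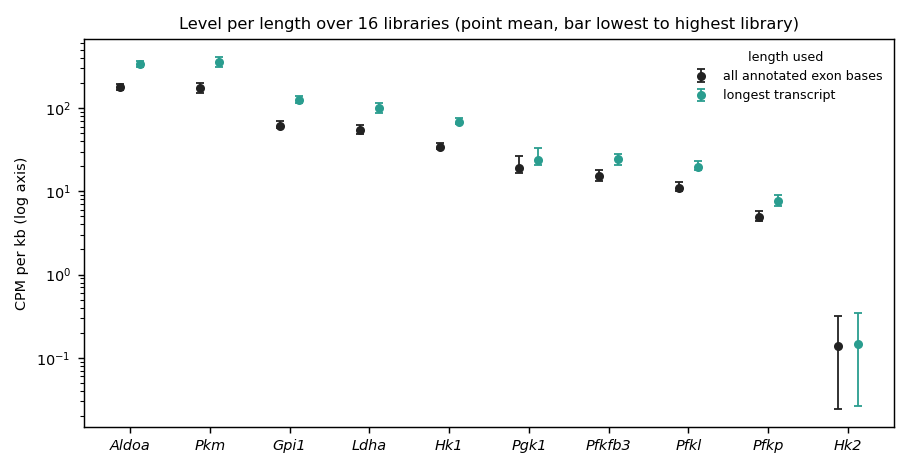
Level of each enzyme in CPM per kb on a log axis, with 2 choices of length. Points are means of 16 libraries and bars run from the lowest to the highest library. Aldoa and Pkm lie at the top with overlapping ranges, and Hk2 lies far below all the others.

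Aldoa was the only one of the 10 enzymes whose transcript was called different between genotypes, and it was lower in *APOE4* brain endothelial cells. That is 1 of 10 enzymes called, beside 12.8% of all 12481 genes tested and 6.09% called lower and 6.71% called higher (edgeR quasi-likelihood test, adjusted p under 0.05 over all genes). At an unadjusted p under 0.05, 3 of the 10 passed (Hk1, Pfkl and Aldoa), beside 29.0% of all genes. Of the enzymes, 6 had a log2 fold change above 0 and 4 below, with a median of 0.02, beside a median of 0.00 over all genes. The median size of the log2 change, whatever its direction, was 0.06 in the enzymes and 0.09 in all genes tested.

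**Figure D2:**
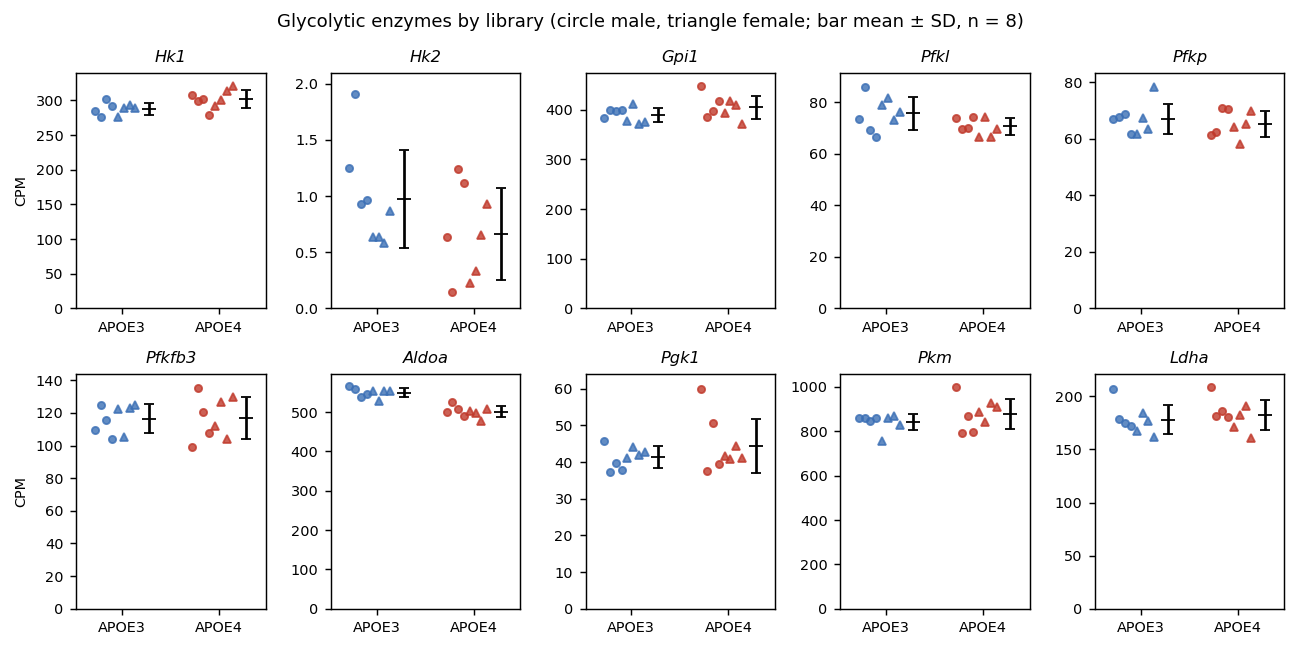
Level of each enzyme in CPM in each of 16 libraries, by genotype. Circles are males and triangles females, in replicate order, and the black bar is the mean ± SD of 8 libraries. The genotypes are apart in Aldoa alone, and Pgk1 has 1 *APOE4* library at 60.0 CPM, well above the rest.

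Among transcripts of the enzymes for the first step, phosphorylation of glucose, Hk1 made up nearly all. Hk1 (ENSMUSG00000037012.18, chromosome 10) had 276 to 302 CPM in *APOE3* (median 289) and 279 to 321 in *APOE4* (median 301). Of 8 *APOE4* libraries, 7 were above the *APOE3* median, with the ranges overlapping over most of their length. The log2 fold change was 0.07 (SE 0.0316), with an adjusted p of 0.154 by edgeR's quasi-likelihood test.

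Hk2 encodes the hexokinase that many tissues induce under insulin, hypoxia or growth signals. Its counts were 2 to 29 per library, 205 in all, and *APOE4* replicate 36 had 2, which is under the floor of 3. Levels were 0.586 to 1.91 CPM in *APOE3* (median 0.900) and 0.144 to 1.24 in *APOE4* (median 0.644). The spread within each genotype was as wide as the difference between them, and the log2 fold change of -0.54 had a 95% interval from -1.28 to 0.19. It was -0.34 without *APOE3* replicate 26, the highest library, and ran to -0.74 in the other fits that left out 1 library. A change of this size was therefore not resolved at this depth. Hk1 took 99.4% of the hexokinase transcripts per length in *APOE3* and 99.6% in *APOE4*, while Hk2 took 0.483 ± 0.227% and 0.311 ± 0.197% (SD, n = 8, two-sided exact permutation test, p = 0.128, adjusted over 6 isoform shares 0.256).

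Gpi1, which converts glucose 6-phosphate to fructose 6-phosphate, had 371 to 411 CPM in *APOE3* (median 391) and 372 to 447 in *APOE4* (median 403). The log2 fold change was 0.06 (95% interval -0.02 to 0.13, adjusted p = 0.329 by edgeR). The ranges began at nearly the same level, and the *APOE4* range reached higher, with replicate 35 as its highest library.

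Phosphofructokinase commits the sugar to glycolysis, and the cells expressed all 3 of its isoforms. Pfkl, the liver-type isoform, had 66.7 to 86.0 CPM in *APOE3* (median 74.8) and 66.4 to 74.5 in *APOE4* (median 70.0). All 8 *APOE4* libraries fell below the *APOE3* median, yet the ranges overlapped and the log2 fold change of -0.10 (SE 0.0469) had an adjusted p of 0.164 (edgeR). Pfkp, the platelet-type isoform, had 61.7 to 78.3 CPM in *APOE3* (median 67.1) and 58.2 to 70.8 in *APOE4* (median 64.8), with a log2 fold change of -0.03 (95% interval -0.14 to 0.07). The upper end in *APOE3* came from replicate 33, and the next highest *APOE3* library had 68.7 CPM.

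Within the phosphofructokinase family, Pfkl made up 43.1 ± 2.21% of transcripts per length in *APOE3* and 41.6 ± 1.32% in *APOE4* (SD, n = 8, two-sided exact permutation test, p = 0.123, adjusted p = 0.256). The muscle-type Pfkm held 37.8% and 39.2%, and Pfkp 19.0 ± 1.57% and 19.2 ± 1.24% (exact permutation test, p = 0.858, adjusted p = 0.933). These shares use all annotated exon bases and depend on that choice. Per longest transcript, means over the 16 libraries were 19.6 CPM per kb for Pfkl, 11.55 for Pfkm and 7.62 for Pfkp. Without length scaling, the *APOE3* means were 75.7 CPM for Pfkl, 33.2 for Pfkm and 67.0 for Pfkp, so Pfkp then ranked above Pfkm. None of the family's shares that were tested differed between genotypes by the permutation test, although 7 of 8 *APOE4* libraries had a Pfkl share below the *APOE3* median. Pfkp overlaps the neighbouring gene Pitrm1 in the annotation, and 5.10% of its 50-base stretches are shared with other genes.

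Pfkfb3 makes fructose 2,6-bisphosphate, the activator of phosphofructokinase, and is the PFKFB isoform best known in endothelium. It had 104 to 125 CPM in *APOE3* (median 119) and 99.4 to 135 in *APOE4* (median 116), so the *APOE4* libraries spanned the *APOE3* ones on both sides. The log2 fold change was 0.01 with a 95% interval from -0.12 to 0.13 (edgeR adjusted p = 0.957). Pfkfb3 made up 86.3 ± 1.86% of its family in *APOE3* and 86.4 ± 0.940% in *APOE4* (SD, n = 8, exact permutation test, p = 0.933).

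**Figure D3:**
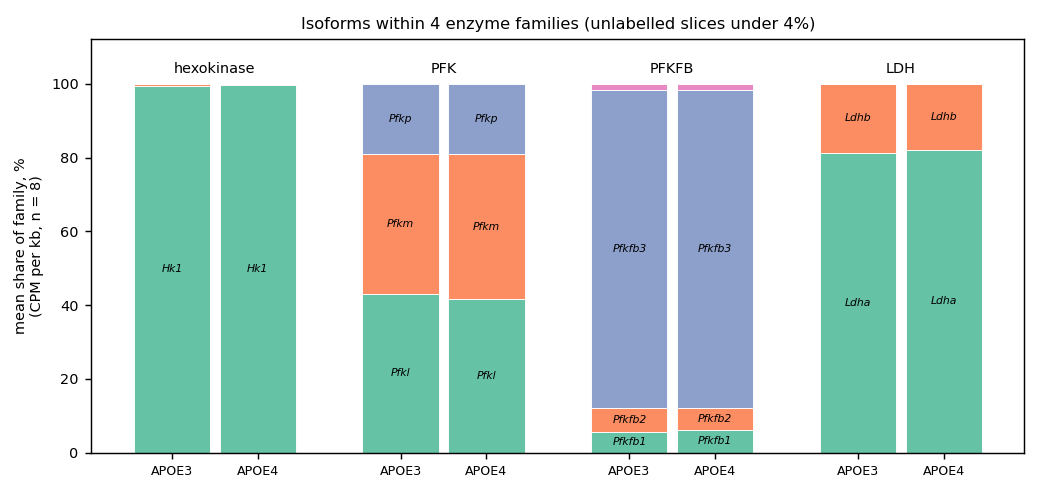
Mean share of each isoform in its family, in percent of CPM per kb, for 4 families and both genotypes (n = 8 libraries each). The paired bars are nearly alike. Hk1 fills its family, Pfkl, Pfkm and Pfkp divide theirs, and Ldha holds 81.2% and 82.0% of lactate dehydrogenase.

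Aldoa encodes aldolase A, which cleaves fructose 1,6-bisphosphate into the pair of 3-carbon sugars. Aldoa (ENSMUSG00000030695.14, chromosome 7 from 126795234 to 126800751, GRCm38) had 528 to 565 CPM in *APOE3* (median 553) and 478 to 527 in *APOE4* (median 502). Every *APOE4* library lay below every *APOE3* library, although the closest pair, *APOE3* replicate 31 and *APOE4* replicate 36, were 528 and 527 CPM. Such separation occurred in 0.625% of all genes tested. The mean fell by 8.78%, from 549.5 ± 11.8 to 501.2 ± 14.3 CPM (SD, n = 8, log2 fold change -0.13, SE 0.0271, adjusted p = 0.00741 by edgeR).

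The Aldoa difference was called in each of the 16 fits that left out 1 library, with log2 fold changes from -0.14 to -0.12 and adjusted p-values from 0.00307 to 0.0211 (edgeR). It was of like size in males (-0.13, SE 0.0395) and in females (-0.14, SE 0.0395), where neither passed after adjustment (0.217 and 0.0875). Aldoa had the smallest spread within genotypes of the 10 enzymes, 0.04 on the log2 scale, against 0.71 for Hk2.

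The level of cell cycle genes moved with genotype as well. The mean log2 CPM of 35 cell cycle genes was 5.49 ± 0.359 in *APOE3* and 6.10 ± 0.276 in *APOE4* (SD, n = 8, two-sided exact permutation test, p = 0.00124), and 33 of the 35 were called higher. In a fit that held this score as a covariate, the log2 fold change of Aldoa was -0.09 (adjusted p = 0.624), edgeR called 0 of all genes tested, and 889 genes had an unadjusted p under 0.05. The same fit put Gpi1 at -0.04, Pgk1 at -0.04, Pkm at -0.05, Ldha at -0.10 and Pfkp at 0.02, each with the sign opposite to the fit without the score and none called. The score comes from these same libraries and ran from 4.98 to 6.06 in *APOE3* and from 5.78 to 6.58 in *APOE4*. Because it differs with genotype, the fit cannot tell the score and genotype apart, and lost calls are to be read with that limit.

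Over the 16 libraries, the genes whose log2 CPM was closest to Aldoa by Pearson correlation were Gstp1 (r = 0.93), Ddx54 (0.92) and Cog8 (0.91), each lower in *APOE4* too. For Hk2, the most variable member, they were Angptl2 (0.83), Esf1 (0.79) and Pdpn (0.79). These are descriptions across libraries that share genotype and culture, and Hk2, Angptl2 and Pdpn have low counts.

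Beyond aldolase, none of the 3 later enzymes differed between genotypes by the test. Pgk1 encodes phosphoglycerate kinase 1, the first step to return ATP, and is X-linked. It had 37.3 to 45.7 CPM in *APOE3* (median 41.5) and 37.7 to 60.0 in *APOE4* (median 41.4). The medians were alike and the *APOE4* mean was raised by replicates 35 (60.0) and 37 (50.8), both from males. The log2 fold change was 0.11 (95% interval -0.06 to 0.27, edgeR adjusted p = 0.396), and 0.04 without replicate 35.

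Pkm encodes pyruvate kinase of muscle type, whose M1 and M2 forms arise by splicing and share 1 count here. It had 758 to 869 CPM in *APOE3* (median 859) and 794 to 998 in *APOE4* (median 878), with a log2 fold change of 0.06 (95% interval -0.03 to 0.15). Of the 8 *APOE4* libraries, 5 were above the *APOE3* median. Ldha, the lactate dehydrogenase subunit that favours lactate formation, had 161 to 207 CPM in *APOE3* (median 176) and 160 to 208 in *APOE4* (median 182), with a log2 fold change of 0.04 (95% interval -0.07 to 0.14). Its share of the family, with Ldhb as the rest, was 81.2 ± 2.85% in *APOE3* and 82.0 ± 1.599% in *APOE4* (SD, n = 8, exact permutation test, p = 0.483, adjusted p = 0.724).

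Counts of several members are uncertain because pseudogenes or neighbours share their sequence. Of the 50-base stretches of Pgk1 transcripts, 53.9% occur in another annotated gene, beside 25.8% for Pkm, 15.8% for Gpi1, 9.26% for Ldha, 5.13% for Aldoa and 0% for Hk2. The 15 annotated pseudogenes that share any such stretch with Ldha held 13087 counts over the 16 libraries. Adding these counts moved the log2 fold change of Ldha to 0.08 (edgeR adjusted p = 0.299). Ldha shares stretches with 328 other genes in all, and whether the pseudogenes are copies of Ldha was not tested. For Aldoa the counts of pseudogenes that share a stretch came to 54, and its log2 fold change stayed at -0.13.

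Some of the enzymes shared a highest library. *APOE4* replicate 35 ranked first of 16 in Gpi1 (447 CPM), Pgk1 (60.0), Pkm (998) and Ldha (208), 4 of the 10 enzymes, and was lowest in Pfkfb3 (99.4). It was also highest in 8 of 36 tested genes of the other pathway lists and in 15.99% of all genes tested, and had the fewest counts (12717847). Its human APOE was the least at 609 CPM, close to the next lowest *APOE4* library at 614 CPM. Without replicate 35, the log2 fold changes were 0.03 for Gpi1, 0.03 for Pkm and 0.01 for Ldha.

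**Figure D4:**
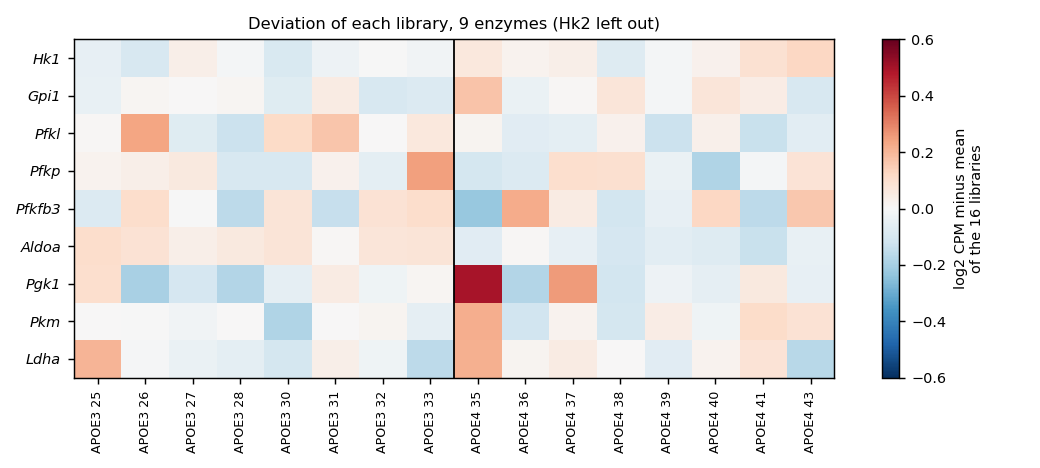
Log2 CPM of 9 enzymes in each library minus the mean of the 16 libraries, *APOE3* to the left of the line and *APOE4* to the right. Aldoa is above its mean in *APOE3* and below it in nearly all *APOE4* libraries, and replicate 35 is high in Gpi1, Pgk1, Pkm and Ldha.

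Stretches before the starts of Aldoa, the called enzyme, and of Gpi1, Pgk1 and Ldha, which peaked in the same library, are shown. Pkm peaked there too and is not shown. The stretches are from RefSeq (GRCm38.p6, the 250 bases before an annotated start, read in the direction of the gene). Aldoa and Ldha have more than 1 annotated start, and for each a window with a marked stretch is shown. Capitals mark ACGTG or its reverse complement CACGT, the core of the hypoxia response element, which was searched on both strands and can overlap itself as CACGTG.
Aldoa, chr7:126799255-126799504, minus strand: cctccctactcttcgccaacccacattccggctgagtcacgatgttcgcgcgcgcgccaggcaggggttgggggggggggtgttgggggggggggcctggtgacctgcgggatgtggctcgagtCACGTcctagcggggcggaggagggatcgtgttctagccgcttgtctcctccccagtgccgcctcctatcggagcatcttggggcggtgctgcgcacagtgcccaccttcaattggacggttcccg
Gpi1, chr7:34230337-34230586, minus strand: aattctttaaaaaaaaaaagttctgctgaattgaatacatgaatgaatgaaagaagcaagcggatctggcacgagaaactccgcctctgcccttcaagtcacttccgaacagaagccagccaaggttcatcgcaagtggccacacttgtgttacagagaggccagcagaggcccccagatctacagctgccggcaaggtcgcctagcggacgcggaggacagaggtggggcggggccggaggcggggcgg
Pgk1, chrX:106186850-106187099, plus strand: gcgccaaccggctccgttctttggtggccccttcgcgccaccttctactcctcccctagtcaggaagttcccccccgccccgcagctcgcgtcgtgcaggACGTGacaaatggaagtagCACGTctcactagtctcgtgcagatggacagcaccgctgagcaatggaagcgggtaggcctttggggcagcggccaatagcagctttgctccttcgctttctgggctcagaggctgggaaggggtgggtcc
Ldha, chr7:46845554-46845803, plus strand: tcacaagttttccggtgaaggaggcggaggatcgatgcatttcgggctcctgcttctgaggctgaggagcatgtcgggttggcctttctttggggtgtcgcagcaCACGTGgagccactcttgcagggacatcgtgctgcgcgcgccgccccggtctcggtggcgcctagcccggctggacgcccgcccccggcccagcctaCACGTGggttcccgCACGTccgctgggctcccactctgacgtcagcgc

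All 10 enzymes matched RefSeq, with 16 such windows among them. The letters occurred in 8 of these 16 windows, belonging to 6 of the 10 enzymes, and in 16.6% of all 32851 windows of this length, or 18.5% of genes. The Aldoa windows 126799179-126799428 and 126799255-126799504 overlap and hold the same marked stretch, which is counted in each. The Ldha window shown held 3 marked stretches, Pgk1 held 2, the Aldoa window shown held 1 and Gpi1 none. Aldoa and Ldha each also had a window without any. A match describes letters and not a bound site, and enzymes with and without them were highest in replicate 35.

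Sex gave no called difference in the 10 enzymes, beside 0.0721% of all genes tested. Hk2 was lower in females with a log2 difference of -0.75 (SE 0.321, unadjusted p = 0.0305, edgeR adjusted p = 1.00), and Ldha had -0.10 (95% interval -0.19 to 0.00). Within males and within females edgeR called 0 genes by genotype (0% of those tested), with 1775 and 2428 at an unadjusted p under 0.05, while DESeq2 called 34 and 418, Aldoa among the latter. The genotype effect differed between the sexes for 0 genes by edgeR (345 at an unadjusted p under 0.05) and 0 by DESeq2. The widest such difference among well-counted enzymes was in Pgk1, 0.22 in males and -0.01 in females, a difference of -0.24 with a 95% interval from -0.56 to 0.09.

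Around the 10 enzymes, the other glycolytic enzymes showed no called gene. Of 20 listed, 7 were tested, 4 above 0 and 3 below, and the 13 others had at most 17 counts in a library. Tpi1, triose phosphate isomerase, which acts beside aldolase, had 91.8 to 108 CPM in *APOE3* and 96.9 to 127 in *APOE4*, and 7 of the *APOE4* values exceeded the *APOE3* median (log2 fold change 0.14, SE 0.0467, edgeR adjusted p = 0.0508). It was just outside the threshold, and DESeq2's Wald test (adjusted p = 0.0383) and limma's voom with sample quality weights (0.0471) put it inside. So did edgeR with sex as a term (0.0496) or a minimum of 10 counts per library (0.0482), and 4 of the 16 fits that left out 1 library. Its log2 fold change was 0.11 at the lowest when 1 library was left out and 0.00 (adjusted p = 0.999) with the cell cycle score in the edgeR fit. Gapdh, glyceraldehyde 3-phosphate dehydrogenase, had a log2 fold change of 0.15 (SE 0.0621, edgeR adjusted p = 0.109) and shares 25.1% of its stretches with other genes. Eno3, the muscle-type enolase, had -0.32 (SE 0.169, edgeR adjusted p = 0.212).

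Regulators, the gluconeogenic bypass and side branches had 1 called gene of 19 tested, or 5.26% beside 12.8% of all genes tested. Pdk2, a kinase that switches off pyruvate dehydrogenase, fell from 41.4 ± 3.39 to 36.0 ± 3.50 CPM (SD, n = 8, log2 fold change -0.20, SE 0.0609, edgeR adjusted p = 0.0344), and 10 of the 16 fits that left out 1 library lost the call, with log2 fold changes from -0.23 to -0.17 over the 16. With the cell cycle score in the fit it was -0.06 (edgeR adjusted p = 0.872). Pdk3, of the same kinase family, had the largest value upwards, 0.26 (SE 0.129, edgeR adjusted p = 0.186), and Fbp2, a fructose bisphosphatase, the lowest, -0.21 with 5 to 24 counts.

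Transport of glucose and lactate also had 1 called gene, of 10 tested, or 10.0% beside 12.8% of all genes tested. Slc16a1, the lactate carrier MCT1, fell from 114 ± 10.2 to 101 ± 4.54 CPM (SD, n = 8, log2 fold change -0.17, SE 0.0477, edgeR adjusted p = 0.0243), with each *APOE4* value under the *APOE3* median but overlapping ranges. Without *APOE3* replicate 26 or *APOE4* replicate 41 it was no longer called, at log2 fold changes of -0.15 and -0.17 (edgeR adjusted p = 0.0527 and 0.0526). With the cell cycle score in the fit it was -0.20 (edgeR adjusted p = 0.545). Slc2a1, the main glucose carrier of the blood-brain barrier, had 1365 ± 61.8 and 1429 ± 84.0 CPM (log2 fold change 0.07, SE 0.0384, edgeR adjusted p = 0.267), and Slc2a12 had the largest value upwards, 0.65 with 6 to 24 counts (adjusted p = 0.0948). Together the 3 lists had 36 tested genes, 0 called higher and 2 called lower by edgeR. That is 5.56% called, beside 12.8% of all genes tested. At an unadjusted p under 0.05 in either direction there were 7 of the 36, beside 29.0% of all genes.

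**Figure D5:**
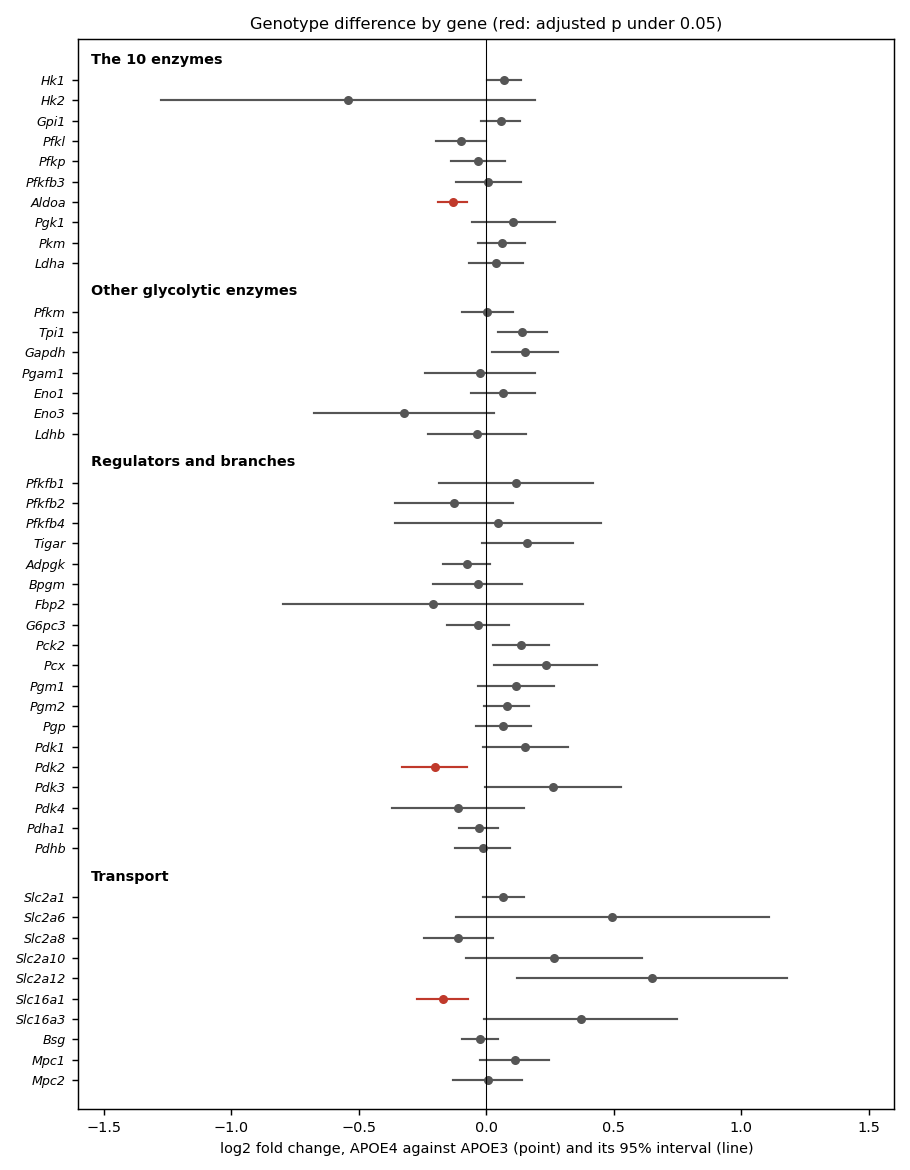
Log2 fold change of *APOE4* against *APOE3* with its 95% interval for the 10 enzymes and 36 other tested pathway genes. Red marks an adjusted p under 0.05, which Aldoa, Pdk2 and Slc16a1 reached, each with a value below 0.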

How the data were processed

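Counts per gene were made by the authors, and the deposited table holds whole-number counts without normalization for 39056 mouse genes and human APOE. The submitters' processing notes name STAR, featureCounts, mm10 and hg38. The annotation release, versions and strand setting are not given in the sources used here. Total RNA input was 100 ng, with 17 PCR cycles and reads of 50 nt. PCR reads without molecular identifiers are not independent molecules, so depth covers counting error only. Symbols and lengths came from GENCODE mouse release 21, which holds 38872 of the identifiers.

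Genes were filtered with edgeR's filterByExpr by genotype and scaled by TMM, and genotypes were compared with the quasi-likelihood F test in edgeR 4.0.16 (R 4.3.3), with Benjamini-Hochberg adjustment over 12481 genes at 0.05. SE is the size of the log2 fold change over the square root of F. Female against male came from a fit with genotype and sex as terms. Genotype effects within each sex, and their difference, came from 1 fit of 4 groups. Isoform shares used exact permutation tests over 12870 assignments (smallest p 0.000155, scipy 1.17.1). The per-library log2 CPM used a prior count of 2. DESeq2 1.42.0, limma 3.58.1 and other filters, scalings and covariates were alternatives. Named genes are the 10 enzymes, pathway-list genes past the threshold or with the largest change each way in their list, and the 3 genes most correlated with Aldoa and with Hk2. Tpi1, Slc2a1 and the isoforms of shared families were named after their values were seen. The isoform share of 1 enzyme family is not reported here, but it counts among the 6 shares adjusted together. Members and lists were chosen with earlier results of these data known.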

Additional observations from a re-analysis of the deposited data

Results flagged for a closer look

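Of the 10 enzymes, 2 had a library far from the others of its genotype. Pfkp in *APOE3* replicate 33 was 78.3 CPM, beside 61.7 to 68.7 CPM in the other 7 *APOE3* libraries, a gap of 0.549 of the group's range on the log2 scale. Pkm in *APOE3* replicate 30 was 758 CPM, beside 828 to 869 CPM in the others, a gap of 0.641 of that range. Of 28 groups examined (each genotype for the 10 enzymes and the 4 other pathway genes followed across settings), 2 met the criterion, and chance flags about 1 in 20.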

How the results depend on the processing

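Of the 10 enzymes, Aldoa was called (adjusted p under 0.05) by DESeq2's Wald test and by limma's voom with sample quality weights. Aldoa was also called with DESeq2's scaling, without mitochondrially encoded genes, with sex as a term, without the low-count filter and with a minimum of 10 counts per library. Fits chosen after seeing the data, with pseudogene counts added or pathway genes left out of the scaling, called it too. Once the cell cycle score was a term, 0 genes, 0 of the enzymes and 0 other pathway genes were called. Aldoa was then -0.0888, Slc16a1 -0.199, Pdk2 -0.0642 and Tpi1 0.000373, and signs turned for Gpi1 (-0.0421), Pfkp (0.0196), Pgk1 (-0.0428), Pkm (-0.0486), Ldha (-0.0969) and Gapdh (-0.0819). The score itself differed with genotype, so this fit cannot tell them apart, and the cause was not tested. Fewer samples gave 0 genes, 0 enzymes and 0 other pathway genes in males alone, with Pfkp at 0.00229, and 2 genes, 0 enzymes and 0 other pathway genes in females alone, with Pfkfb3 at -0.0101 and Pgk1 at -0.0134. With the longest transcript as length, the ranks of Pkm, Aldoa, Pfkfb3 and Pgk1 were 1, 2, 6 and 7. Leaving out 1 library gave 846 to 2127 genes called, lowest without *APOE4* replicate 41 and highest without *APOE3* replicate 31, and 0 to 5 other pathway genes. Within females the count ran from 0 to 879 genes, highest without *APOE3* replicate 31, and from 0 to 1 enzymes, and within males from 0 to 1 genes. The log2 fold change ranged from -0.743 to -0.336 for Hk2, from -0.0258 to 0.0366 for Pfkfb3 and from -0.0516 to 0.00103 for Pfkp, and the genotype difference in family share from -0.41 to 0.47 percentage points for Pfkfb3 and from -0.19 to 0.55 for Pfkp. Adding counts of every gene that shares 50-base stretches was not run, since some sharers are unrelated genes. No paired analysis was possible because the genotypes share no replicate numbers. Depth limits Hk2, at 2 to 29 counts a library.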
